A study of Mus musculus with 6 samples.

Results

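Fibroblast growth factor (FGF) receptors, their feedback inhibitors and a pair of target genes were followed in cells isolated as alveolar epithelial type 2 cells from mouse lung. The 10 genes were chosen by name, with earlier results of these data known. They were the receptors Fgfr1, Fgfr2 and Fgfr3 and the Sprouty genes Spry1, Spry2 and Spry4. The others were the related genes Spred1 and Spred2, the phosphatase gene Dusp6 and the transcription factor gene Etv4. All 10 were among the 13931 genes of the deposited tables, and 8 of them reached 1 FPKM (a fragment count scaled to transcript length and to library size) in at least 3 of the 6 libraries, in fact in every library, and were tested. Spry4 and Etv4 did not reach this level and are given as values only.

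The libraries came from C57BL/6 mice, 3 given PBS and 3 given bleomycin, a DNA-cleaving drug that injures the lung, at 1 U/kg in multiple exposures, and the design gives 3 mice to each group. No genetic change is named in the labels, with the age of the mice, the route and spacing of exposures and the way of isolating the cells all not given in the sources used here. Transcript FPKM were summed by gene, and bleomycin was compared with PBS by limma on log2(FPKM + 1), with p-values adjusted over all 12326 tested genes and a threshold of 0.05. Fold changes on that scale understate the change of low genes.

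FGFs are secreted proteins that bind receptor tyrosine kinases together with heparan sulfate at the cell surface. The activated receptor signals through the adaptor FRS2 and the RAS and MAP kinase cascade to the kinase ERK, which turns on ETS transcription factors such as ETV4 and ETV5 and also its own inhibitors, the Sprouty and SPRED proteins and the phosphatase DUSP6. In the lung, mesenchymal cells make FGF10 and FGF7, and the form of FGFR2 made by epithelium receives them, a signal needed for branching of the airways in the embryo and for upkeep of type 2 cells in the adult.

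The libraries carried the label's markers and also those of other cells. Of 11 genes marking type 2 cells and epithelium, 7 fell and none rose, and their summed level was 16204 to 23922 FPKM with PBS and 2973 to 6937 with bleomycin. Of 12 endothelial markers 11 rose and none fell, with sums of 46.1 to 56.6 and 352 to 643 FPKM. Of the 11, 3 were short of 1 FPKM in a PBS library and so needed a bleomycin library to be tested. Cldn5 was listed at 0 in all 3 PBS libraries. The 4 pan-leukocyte markers summed to 14.7 to 25.0 FPKM with PBS and 657 to 1029 FPKM with bleomycin. Of 12 fibroblast and smooth muscle markers 6 fell and none rose, with sums of 2534 to 3217 and 591 to 1539 FPKM. In such bulk libraries fewer cells of a type, less RNA per cell and more RNA from other cells cannot be told apart. Their parts in the changes given below were not tested. Library totals over the listed transcripts lay between 253146 and 300697 FPKM, and sequencing depth is unknown.

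The question of the comparison was which of these genes differ in type 2 cell preparations after repeated bleomycin. Of the 8 tested genes, Fgfr2, Fgfr1 and Spred2 fell, none rose and 5 did not pass. Among all tested genes 7.34% fell and 15.2% rose, 22.5% in all. The 8 genes had a median log2 fold change of -0.74, against 0.09 over all tested genes. The 2 groups did not overlap, with PBS higher, for Fgfr1, Fgfr2, Fgfr3 and Spred2, a pattern that 16.4% of all tested genes showed. None of the 8 lay apart with bleomycin higher, against 27.2% of all tested genes, and either pattern held for 43.6%. Without single libraries the count of falls went as low as 1, and the gene that still fell was Fgfr2. With equal library medians or quantile normalization, the falls among all genes numbered 1412 and 1441 in place of 905 and the rises 1475 and 1431 in place of 1871. These scalings moved the median over all tested genes from 0.09 to -0.07 and -0.08, and Fgfr1, Fgfr2 and Spred2 fell under both.

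**Figure D1:**
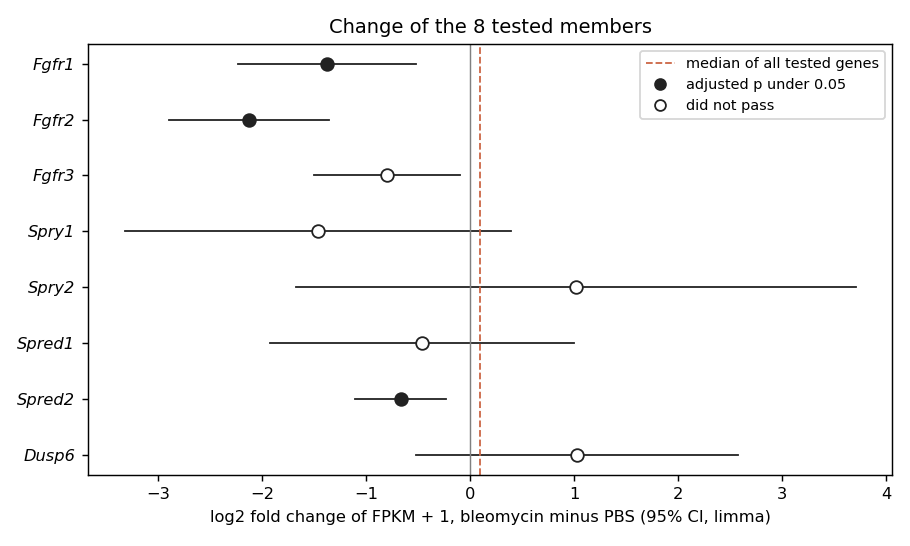
Log2 fold change of FPKM + 1, bleomycin minus PBS, with 95% confidence intervals from limma for the 8 tested genes (3 libraries a group). Filled points had an adjusted p under 0.05, and the dashed line is the median of all tested genes, 0.09. Fgfr1, Fgfr2 and Spred2 lie left of it and passed, while the intervals of Spry1, Spry2, Spred1 and Dusp6 span 0. The interval of Fgfr3, -1.51 to -0.10, leaves out 0, but its adjusted p was 0.097 and it did not pass. Intervals are not adjusted for the number of genes tested.

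Fgfr2 encodes the receptor whose epithelial form binds FGF10 and FGF7. It had the largest fall of the 8 tested genes and was the highest of the receptors in each PBS library. The gene (ENSMUSG00000030849.18) lies on the minus strand of mm10 chromosome 7, from 130162451 to 130266263. Its level was 86.7, 53.6 and 77.8 FPKM in the PBS libraries, replicates 1 to 3, and 23.8, 14.7 and 10.7 FPKM in the bleomycin libraries, replicates 1 to 3. Every bleomycin library was below every PBS library. The means were 72.7 ± 17.1 and 16.4 ± 6.74 FPKM (SD, n = 3 each), a level 4.44-fold lower, and the log2 fold change was -2.13 ± 0.32 (SE, limma adjusted p = 0.00511). Fgfr2 passed the threshold in each of the 16 alternative analyses, with log2 fold changes between -2.42 and -1.87.

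Fgfr1, Fgfr2 and Fgfr3 have 2 alternative exons for the last part of the third immunoglobulin loop, where the ligand binds. Exon IIIb, nearer the start of the gene, is used by epithelium, and exon IIIc by mesenchyme. Each deposited Fgfr2 transcript holds one or the other. Exon IIIb is shown because it marks the form that receives FGF7 and FGF10. It was read from the GENCODE M21 transcripts, whose GRCm38 assembly is mm10, and is given 5′ to 3′ on the gene's strand. In all 3 genes the exons were told apart by their order alone, the first of the mutually exclusive pair being taken as IIIb. Aligned end to end, it shares 74.3% of positions with exon IIIb of Fgfr1 and 54.8% with that of Fgfr3.
Fgfr2 exon IIIb, chr7:130199758-130199905, minus strand: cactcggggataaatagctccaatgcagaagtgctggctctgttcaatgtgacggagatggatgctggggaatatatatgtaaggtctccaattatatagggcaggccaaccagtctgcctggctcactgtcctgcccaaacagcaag

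Both forms of Fgfr2 were lower with bleomycin. The 3 listed transcripts with exon IIIb summed to 44.4, 36.5 and 52.5 FPKM in PBS replicates 1 to 3 and to 18.0, 9.71 and 5.96 FPKM in bleomycin replicates 1 to 3. The 2 transcripts with exon IIIc summed to 42.3, 17.1 and 25.3 FPKM and to 5.86, 4.96 and 4.70 FPKM. Neither sum overlapped between the groups, and the means were 3.97-fold lower for IIIb and 5.46-fold lower for IIIc. Exon IIIb transcripts made up 51.2%, 68.0% and 67.5% of Fgfr2 with PBS and 75.4%, 66.2% and 55.9% with bleomycin, and these shares overlapped. The mean share differed by 3.61 percentage points, less than the SD in either group, 9.54 and 9.75 points (exact two-sided permutation test, p = 0.7, adjusted over 3 receptors 0.9). With 3 libraries against 3, the smallest p that this exact test allows is 0.1.

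Tested as single transcripts, the IIIb transcript Fgfr2-003 and the IIIc transcripts Fgfr2-002 and Fgfr2-004 fell, with log2 fold changes of -2.03, -1.96 and -2.04 (limma adjusted p of 0.0163, 0.0132 and 0.00946). The minor IIIb transcripts Fgfr2-015 and Fgfr2-018 were at or below 2.40 FPKM in every library and did not pass. Of 21 tested transcripts of the 10 genes, 4 fell and none rose, against 3.97% and 10.8% of all 17759 tested transcripts. The count was 2 without PBS replicate 1, PBS replicate 3 or bleomycin replicate 2. Reads from shared exons are divided among transcripts by estimation, so the split within a gene is uncertain.

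**Figure D2:**
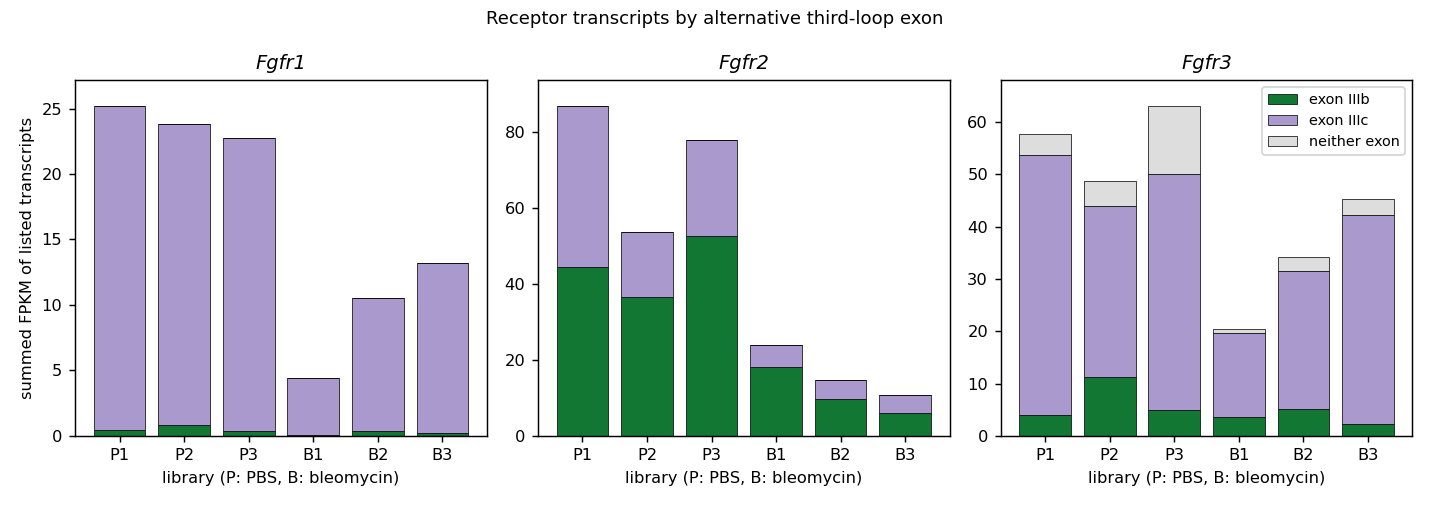
Summed FPKM of the listed transcripts of each receptor gene in each library (P, PBS; B, bleomycin; digits, replicate), divided by whether a transcript holds exon IIIb, exon IIIc or neither. Fgfr2 was a mixture with IIIb at 51.2% to 75.4% of the total, while Fgfr1 and Fgfr3 were mainly IIIc in all 6 libraries.

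Fgfr1 encodes the receptor best known from mesenchymal cells and endothelium. The gene (ENSMUSG00000031565.18, mm10 chromosome 8, 25518759 to 25575718, plus strand) measured 25.2, 23.8 and 22.8 FPKM in PBS replicates 1 to 3 and 4.39, 10.5 and 13.2 FPKM in bleomycin replicates 1 to 3. The PBS libraries lay within 1.11-fold of each other, the bleomycin libraries spread 3.01-fold, and the groups did not overlap. Fgfr1 fell by 1.38 ± 0.36 on the log2 scale (SE, limma adjusted p = 0.037), from 23.9 ± 1.20 to 9.38 ± 4.53 FPKM (SD, n = 3). The call was lost when any PBS library was left out (adjusted p of 0.0994, 0.091 and 0.0914 for replicates 1 to 3) and without bleomycin replicate 2 (0.0677). The log2 fold changes in these fits were -1.34, -1.38, -1.41 and -1.51. Without bleomycin replicate 1 or 3 the call held, with log2 fold changes of -0.96 and -1.66. Exon IIIb made up between 1.26% and 3.61% of Fgfr1 in the 6 libraries. Of its transcripts with exon IIIc, Fgfr1-003 fell by 1.13 on the log2 scale (limma adjusted p = 0.0286), and Fgfr1-001 and Fgfr1-002, with log2 fold changes of -1.32 and -1.05, did not pass.

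Fgfr3 encodes the receptor best known as a brake on bone growth. It lies on mm10 chromosome 5 (ENSMUSG00000054252.17, 33721724 to 33737068, plus strand) and measured 57.7, 48.8 and 63.1 FPKM with PBS and 20.5, 34.2 and 45.3 FPKM with bleomycin, replicates 1 to 3 in each. The groups did not overlap, but the highest bleomycin library came close to the lowest PBS library. The log2 fold change was -0.80 ± 0.29 (limma adjusted p = 0.097), from 56.5 ± 7.22 to 33.4 ± 12.4 FPKM, and did not pass. It passed without bleomycin replicate 3 (adjusted p = 0.0421) or with equal library medians (0.0486).

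The division of Fgfr3 among transcripts varied between libraries more than its sum. Its transcripts Fgfr3-001 and Fgfr3-002, both with exon IIIc, measured 40.2 and 2.42 FPKM in PBS replicate 1 but 2.19 and 35.05 FPKM in PBS replicate 3. In that pair of libraries the gene's sum was 57.7 and 63.1 FPKM. With only the transcript of the highest mean, Fgfr3-001, the log2 fold change was 0.44 in place of -0.80 (limma adjusted p = 0.785). Fgfr3-001 averaged 21.4 ± 19.0 FPKM with PBS and 20.4 ± 10.3 FPKM with bleomycin. That value is of 1 transcript whose share of the gene was unsteady, and the sum kept its direction in every other alternative.

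The order of the receptors was the same in all PBS libraries and in 1 bleomycin library. With PBS, Fgfr2 was the highest and Fgfr1 the lowest of these 3 genes in every library. With bleomycin, Fgfr2 was still above Fgfr3 in replicate 1 (23.8 and 20.5 FPKM), but below it in replicates 2 and 3 (14.7 and 34.2, then 10.7 and 45.3). Ratios within a library were taken of FPKM + 1. The within-library log2 ratio of Fgfr3 to Fgfr2 was -0.34 ± 0.23 with PBS and 0.98 ± 1.11 with bleomycin (SD, n = 3, exact two-sided permutation p = 0.2), and the groups overlapped. That of Fgfr1 to Fgfr2 was -1.54 ± 0.35 and -0.79 ± 1.28 (exact permutation p = 0.4). That of Fgfr1 to Fgfr3 was -1.20 ± 0.22 and -1.77 ± 0.20 and did not overlap (exact permutation p = 0.1, the smallest the design allows). Adjusted over the 9 ratios examined, these p were 0.36, 0.45 and 0.225.

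Set against epithelial and endothelial markers, the receptors moved in these libraries as follows. Epcam, an adhesion gene of epithelium, averaged 47.5 ± 5.58 FPKM in PBS libraries and 23.7 ± 9.69 in bleomycin libraries, a log2 fold change of -1.06 that did not pass (limma adjusted p = 0.0634). The within-library log2 ratio of Fgfr2 to Epcam was 0.71, 0.15 and 0.89 in PBS replicates 1 to 3 and -0.39, -0.81 and -0.25 in bleomycin replicates 1 to 3. The ratio was lower in all 3 bleomycin libraries, with a mean difference of -1.07 (exact permutation p = 0.1, adjusted 0.225). Epcam changed less than the median of the 11 type 2 cell and epithelial markers. That median log2 fold change was -1.82, against -2.13 for Fgfr2. Sftpc, the surfactant protein C gene of type 2 cells, fell by 1.90 on the log2 scale (limma adjusted p = 0.0349). Its adjusted p was 0.0687 to 0.0968 when any library but bleomycin replicate 3 was left out, and with quantile normalization the change was -0.53 (0.449). That scaling gives equal ranks equal values, so it limits any change of a gene near the top of each library, such as Sftpc. Pecam1, an endothelial adhesion gene, rose by 3.28, and the log2 ratio of Fgfr1 to Pecam1 went from 1.91 ± 0.17 to -2.75 ± 0.83 (exact permutation p = 0.1, adjusted 0.225). Fgfr1 itself changed by -1.38, and the median of the 12 fibroblast and smooth muscle markers was -1.38.

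Likeness of library patterns was measured as the root mean square difference of log2(FPKM + 1) over the 6 libraries, after each gene's mean was subtracted, among 166 tested pathway and marker genes. The gene closest to Fgfr2 was Sftpc, at 0.35, followed by the type 2 cell genes Abca3 and Napsa at 0.36 and 0.40. The gene closest to Fgfr1 was Mfap4, of the fibroblast list, at 0.12, followed by Fgfr4 at 0.14 and the fibroblast gene Pdgfra at 0.23. Fgfr3 was closest to Gpc6, a heparan sulfate proteoglycan gene, at 0.16. The nearest genes of the more variable members lay farther off, Lamp3 at 0.63 from Spry1, Grb2 at 1.19 from Spry2, Glce at 0.54 from Spred1 and Dusp4 at 0.60 from Dusp6. Such closeness follows in part from the shared difference between the groups. Fgfr1 and Mfap4 had log2 fold changes of -1.38 and -1.37, and Fgfr2 and Sftpc of -2.13 and -1.90. The cell source of these genes was not tested.

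The Sprouty genes encode membrane-associated inhibitors that are induced by the signal they block. Spry1 and Spry2 did not pass the test in either direction, and only 2.13% and 0.681% of tested genes had a larger SD within the groups on the log2 scale. Spry4 was too low to test. Spry1 (chromosome 3, 37639947 to 37644598) measured 5.76, 25.4 and 32.6 FPKM in PBS replicates 1 to 3 and 7.23, 11.7 and 1.71 FPKM in bleomycin replicates 1 to 3. PBS replicate 1 lay inside the range of the bleomycin libraries, and the other PBS libraries lay above it. The log2 fold change was -1.47 ± 0.78 (limma adjusted p = 0.223), with a 95% confidence interval from -3.32 to 0.39. Its 3 listed transcripts had log2 fold changes between -1.37 and -0.95, and none passed.

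Spry2, the Sprouty gene best known from airway branching (chromosome 14, 105891949 to 105896819), was divided across libraries in a way that the groups do not account for. It measured 26.2, 1.25 and 3.10 FPKM in PBS replicates 1 to 3 and 20.1, 26.9 and 2.51 FPKM in bleomycin replicates 1 to 3. High values thus occurred in PBS replicate 1 and bleomycin replicates 1 and 2, and low values in the remaining libraries. The ratio of the highest to the lowest library was 21.02 with PBS and 10.7 with bleomycin. The log2 fold change was 1.01 ± 1.12 (limma adjusted p = 0.559), and its confidence interval, from -1.68 to 3.71, leaves room for large changes in either direction.

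Spry4, on chromosome 18, was near 0 in most libraries. It measured 6.11 FPKM in PBS replicate 1, 0.00828 in PBS replicate 2 and 1e-06 in PBS replicate 3, and 0.383, 0.595 and 1.26 FPKM in bleomycin replicates 1 to 3. PBS replicate 1 was above, and the other PBS libraries were below, all bleomycin libraries. PBS replicate 1 was thus the highest PBS library for Spry2 and Spry4 and the lowest for Spry1. The within-library log2 ratio of Spry1 to Spry2, again of FPKM + 1, was -2.01, 3.55 and 3.03 with PBS and -1.36, -1.13 and -0.37 with bleomycin (exact permutation p = 0.4, adjusted 0.45).

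The SPRED proteins inhibit the step between RAS and RAF. Spred2 (chromosome 11, 19924442 to 20022577) was low in all libraries and among the steadiest of these genes, with 78.7% of tested genes more variable within the groups. It measured 4.10, 3.82 and 2.80 FPKM with PBS and 1.83, 1.67 and 2.07 FPKM with bleomycin, and the groups did not overlap. Spred2 fell by 0.67 ± 0.18 on the log2 scale (limma adjusted p = 0.044), from 3.57 ± 0.683 to 1.86 ± 0.2 FPKM. The call was lost without PBS replicate 1 (adjusted p = 0.11) or 2 (0.114) and without any bleomycin library (0.109, 0.129 and 0.0649 for replicates 1 to 3), and with each gene's highest transcript only (0.0585). Spred2 has 1 listed transcript, so in that last alternative its own values and its log2 fold change of -0.67 were unchanged. Among the pathway and marker genes, the decoy receptor gene Fgfrl1 was closest to it in pattern, at 0.19, and Spred3, of the same family, was next at 0.22.

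Spred1 (chromosome 2, 117121374 to 117182279) measured 4.83, 24.2 and 25.3 FPKM with PBS and 11.6, 13.7 and 6.90 FPKM with bleomycin. The bleomycin values lay between PBS replicate 1 and the other PBS libraries, and the log2 fold change was -0.47 ± 0.61 (limma adjusted p = 0.625). Without PBS replicate 1, which was low for both Spry1 and Spred1, the log2 fold changes were -2.18 for Spry1 (limma adjusted p = 0.0864) and -1.18 for Spred1 (0.0555), still short of the threshold.

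**Figure D3:**
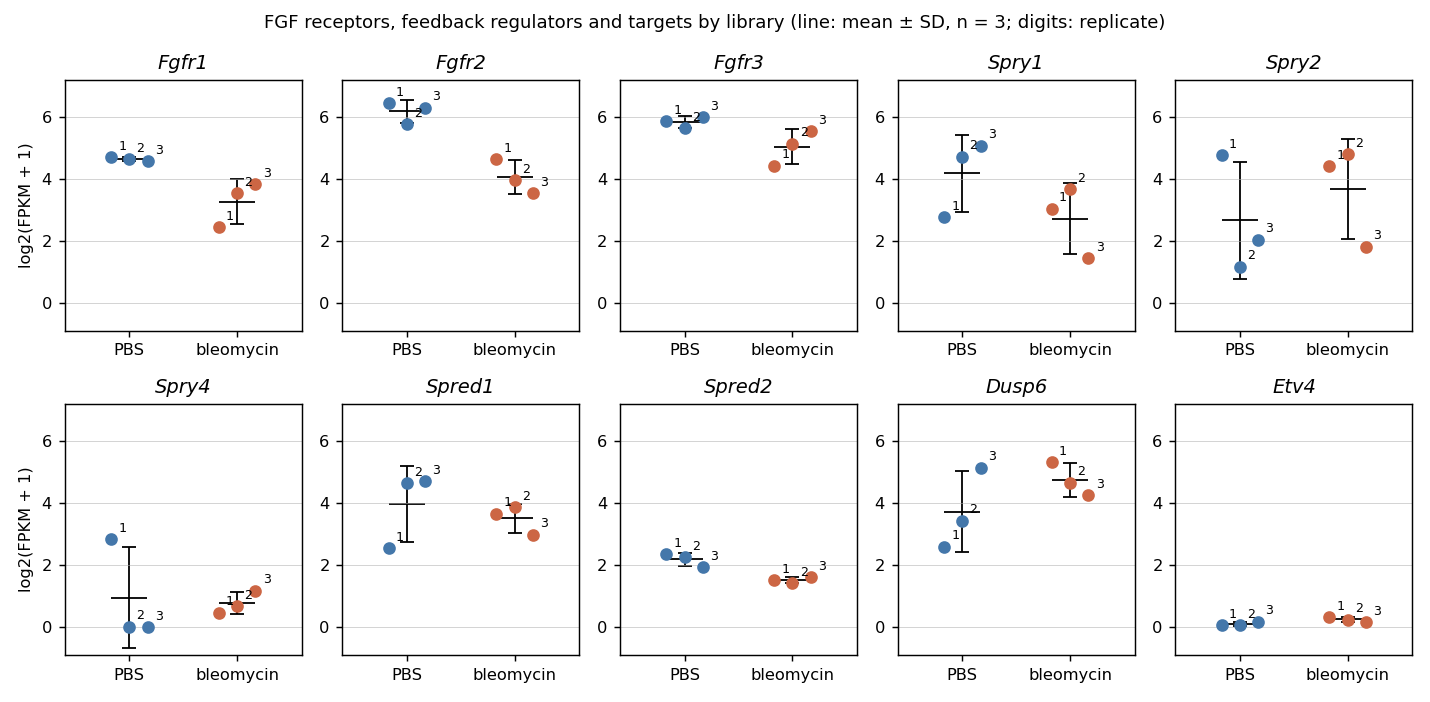
Log2(FPKM + 1) of the 10 genes in each library, with digits for the replicate and lines for mean ± SD (n = 3 a group). The PBS points of Fgfr1, Fgfr2, Fgfr3 and Spred2 lie above all bleomycin points. Spry1, Spry2, Spry4, Spred1 and Dusp6 spread within the PBS group, from 1.25 to 26.2 FPKM for Spry2.

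Dusp6 and Etv4 are read as targets of ERK, the first coding for a phosphatase that inactivates ERK in the cytoplasm. Dusp6 (chromosome 10, 99263231 to 99267488) measured 5.04, 9.84 and 34.4 FPKM in PBS replicates 1 to 3 and 39.4, 24.3 and 18.2 FPKM in bleomycin replicates 1 to 3. PBS replicate 3 lay inside the range of the bleomycin libraries and the other PBS libraries below it. The log2 fold change was 1.03 ± 0.65 (limma adjusted p = 0.301). Without PBS replicate 3, the library that overlapped, it was 1.74 with an adjusted p of 0.0466. Dusp6 passed in no other alternative. Etv4 (chromosome 11, 101769747 to 101785371) was at 0.0356, 0.0472 and 0.128 FPKM with PBS and at 0.256, 0.182 and 0.124 with bleomycin, a level too low to test.

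Etv5, the close relative of Etv4 and an upkeep gene of type 2 cells, was by contrast abundant. It measured 157, 142 and 51.5 FPKM in PBS replicates 1 to 3 and 42.8, 16.5 and 8.81 FPKM in bleomycin replicates 1 to 3. Etv5 fell by 2.43 ± 0.64 on the log2 scale (limma adjusted p = 0.0389). That call was lost without PBS replicate 1 (adjusted p = 0.114) or 2 (0.108) and without bleomycin replicate 2 (0.105) or 3 (0.0851).

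Beyond these 10 genes, 103 pathway genes were listed by role, of which 91 were in the tables and 88 were tested. Of the 88, 13 rose and 9 fell, or 14.8% and 10.2%, against 15.2% and 7.34% of all tested genes, with a median of 0.01. The count of falls was 4 or 5 without any one library other than bleomycin replicate 3.

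Receptors and co-receptors at the cell surface were the group with the most falls, 5 of 12, with 1 rise and a median log2 fold change of -0.92. These falls and rises were 41.7% and 8.33%, against 7.34% and 15.2% of all tested genes. Fgfr4 measured 26.4, 23.7 and 22.0 FPKM with PBS and 4.79, 9.11 and 16.0 with bleomycin. Fgfr4 fell by 1.32 (limma adjusted p = 0.049), a call lost in 10 of the 16 alternatives, among them those without PBS replicate 1, 2 or 3 (0.126, 0.111 and 0.105) or bleomycin replicate 1 or 2 (0.0748 and 0.116). Among the syndecans, which carry heparan sulfate, Sdc4 fell by 1.45 (adjusted p = 0.00204), from 205 ± 15.7 to 74.9 ± 11.3 FPKM, and Sdc1, the main syndecan of epithelium, by 1.20 (0.0105). Sdc3 rose by 2.52 (0.0124), from 2.20 ± 1.46 to 16.7 ± 7.69 FPKM, with 1 PBS library short of 1 FPKM. The other genes that fell were Fgfrl1 and the glypican gene Gpc6, by 0.89 and 0.95. None of the 14 genes of heparan sulfate synthesis passed, and their median was -0.10. At an unadjusted limma p under 0.05, Ext1 (-0.63), Extl3 (-0.90) and Hs6st2 (0.54) passed, 3 of 14, against 36.8% of all tested genes.

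Of the 7 tested ligand-list genes, 1 fell and 1 rose, 14.3% each, against 7.34% and 15.2% of all tested genes. Fgf7, a ligand of the IIIb form of FGFR2 made by fibroblasts, measured 8.89, 10.1 and 14.0 FPKM with PBS and 2.68, 5.47 and 6.14 with bleomycin. Fgf7 fell by 1.09 (limma adjusted p = 0.0465), a call lost in 8 of the 16 alternatives, with adjusted p of 0.0755 to 0.13 without any one library other than bleomycin replicate 3. Fgf10 stood at 12.2, 1.00 and 18.3 FPKM in the PBS libraries and at 2.26, 6.88 and 7.82 FPKM in the bleomycin libraries. These overlapped, and the log2 fold change was -0.39 (adjusted p = 0.785). Fgf13, a member of the family that stays inside the cell, was at 0.1 ± 0.0288 FPKM with PBS and 1.59 ± 0.431 FPKM with bleomycin (1.22, adjusted p = 0.00449). It reached 1 FPKM only in the bleomycin libraries, and so could enter the test only by being higher there. Fgf1, a ligand of all the receptors, did not pass (-0.41, adjusted p = 0.363). In the same libraries the fibroblast gene Col1a1 fell by 2.00 (limma adjusted p = 0.0317). Omitting any PBS library, or bleomycin replicate 2, raised its adjusted p to between 0.0746 and 0.0933. The part of fibroblast RNA in the level of Fgf7 was not tested.

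Of 14 adaptors 1 rose, Cbl, a ubiquitin ligase gene (1.47, limma adjusted p = 0.0125), and none fell. That is 7.14% and 0%, against 15.2% and 7.34% of all tested genes. The adaptor genes Gab1 (-0.62, adjusted p = 0.0687) and Shc1 (-0.29, 0.223) did not pass. Frs2, the adaptor bound to the receptors, was at 3.06 ± 1.53 FPKM in PBS and 3.43 ± 1.24 FPKM in bleomycin libraries, a log2 fold change of 0.16 (adjusted p = 0.766). Of 14 cascade genes 2 rose and none fell, or 14.3% and 0%, with Hras (-0.53, 0.162) among those that did not pass. Nras rose by 1.35 (0.0309), with adjusted p of 0.0705 to 0.0912 without any one library other than PBS replicate 3 and of 0.0724 with the highest transcript only. Rps6ka1, coding for a kinase activated by ERK, rose by 1.20 (0.015), but its highest transcript alone changed by -0.20.

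Of 11 other feedback inhibitors 3 rose and 1 fell, or 27.3% and 9.09%, against 15.2% and 7.34% of all tested genes. Dusp5, coding for a nuclear phosphatase of ERK, measured 3.25, 3.72 and 1.69 FPKM with PBS and 50.1, 16.0 and 38.3 with bleomycin, and rose by 3.10 ± 0.44 (limma adjusted p = 0.00401). Rasa3, a RAS inactivator known from platelets and blood cells, rose by 1.68 (0.000352), from 13.8 ± 0.195 to 46.7 ± 2.41 FPKM. Rasa1 rose by 0.52 (0.0427), a call lost without any one library (0.0636 to 0.128) and with equal medians or quantile normalization (0.15 and 0.115). Spred3 fell by 0.60 (0.0495).

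Of 16 ERK-responsive factors and targets 5 rose and 2 fell, or 31.25% and 12.5%, against 15.2% and 7.34% of all tested genes. Ets1, an ETS factor of lymphocytes and endothelium, rose by 2.99 (limma adjusted p = 0.000197), from 11.1 ± 1.66 to 95.6 ± 15.3 FPKM, and Myc by 2.01 (0.00424). Elk3, Elk4 and Bhlhe40 rose by 1.17, 1.31 and 1.69 (limma adjusted p of 0.00511, 0.0212 and 0.0487). Bhlhe40 was just inside the threshold, with 84.3, 25.1 and 29.3 FPKM in bleomycin replicates 1 to 3. Beside Etv5, Phlda1 fell, by 1.26 (0.00356), from 85.7 ± 13.6 to 34.9 ± 3.28 FPKM. In these libraries the pan-leukocyte gene Ptprc was at 0.0706, 3.81 and 4.85 FPKM with PBS and at 249, 123 and 107 FPKM with bleomycin. The 10 T and NK cell markers summed to 2.59 to 8.08 FPKM with PBS and 246 to 455 with bleomycin, each of them short of 1 FPKM in a PBS library. The part of RNA from these cells in the rises of Ets1, Dusp5, Rasa3 and Myc was not tested.

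**Figure D4:**
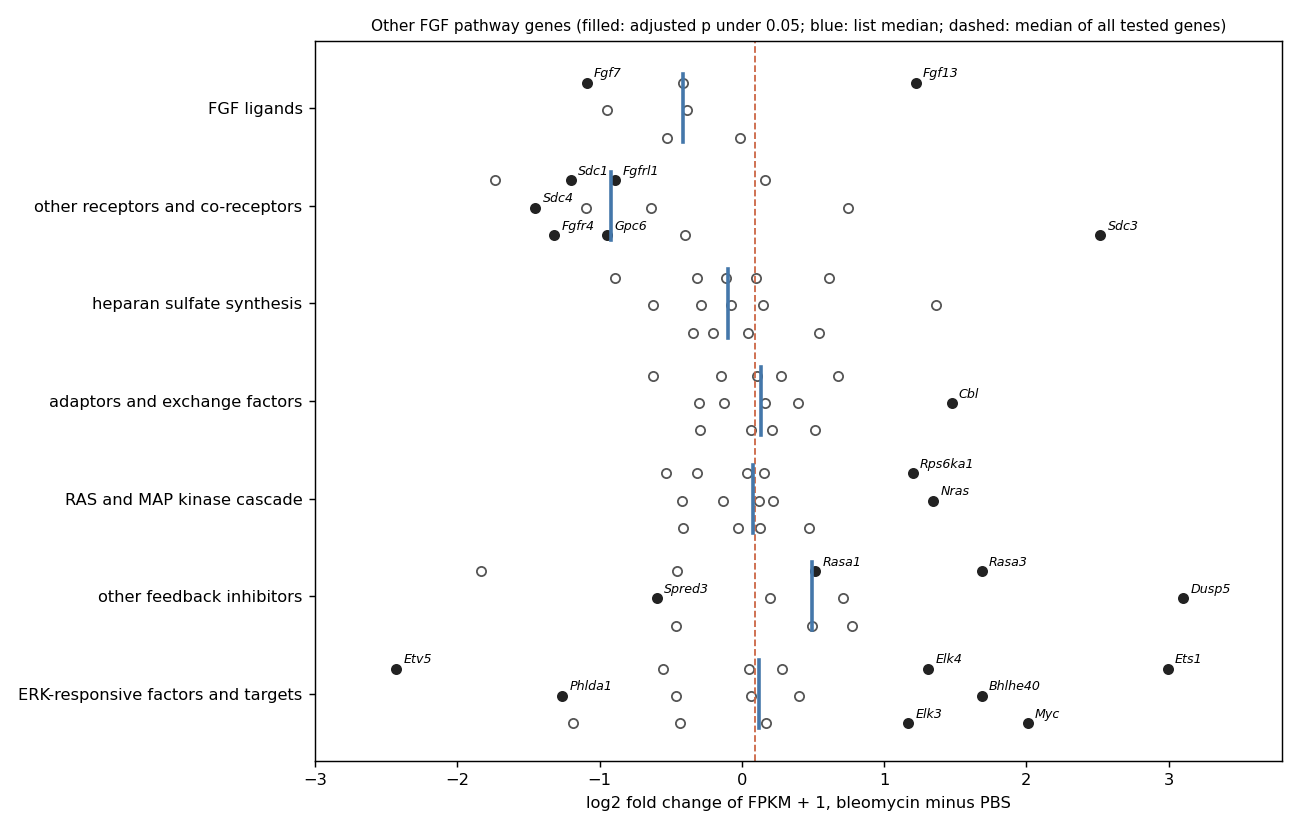
Log2 fold change of FPKM + 1, bleomycin minus PBS, for the 88 tested pathway genes by list. Points are genes, filled where the adjusted p was under 0.05, spread vertically for legibility, the short line is the list median, and the dashed line the median of all tested genes, 0.09. Receptors and co-receptors centre on -0.92, and heparan sulfate synthesis has no filled point.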

How the data were processed

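Per the labels, total RNA isolated with TRIzol was made into libraries with the KAPA stranded kit. HISAT2, StringTie and mm10 are named per the submitters' processing notes. Annotation and settings: not given in the sources used here. As deposited, the tables hold FPKM per transcript and library, computed by the authors, per the file headers, for the same 24647 transcripts in all 6 files. Whole reads could not be recovered, since at most 34.8% of low values fell within 0.05 of a common step, so depth is unknown.

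FPKM were summed by gene ID. Genes with 1 FPKM in at least 3 libraries entered limma 3.58.1 in R 4.3.3 (eBayes with trend, no covariate, Benjamini-Hochberg over 12326 genes), which was tested on simulated data. Transcripts were tested likewise. Exons were taken from GENCODE M21, which holds 24 of the 27 listed transcripts of these genes in the same version. The genes and lists were chosen with earlier results of these data known. Named were the 10 genes, for each list the 3 genes of lowest adjusted p, the pathway or marker gene most like each tested gene, and Fgf7, Fgf10, Fgfr4, Etv5, Frs2, Sftpc, Epcam, Pecam1, Ptprc and Col1a1. Fgfrl1, Gpc6, Spred3, Elk3, Elk4, Bhlhe40, Abca3, Napsa and Pdgfra were named after their values were seen. 1 further gene of that rule and an exon sequence are not reported here. Alternatives covered pseudocounts (0.1 and 5), filters (none and 5 FPKM), scaling, the transcript sum, the variance model, weights, the replicate number and each library left out.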

Additional observations from a re-analysis of the deposited data

How the results depend on the processing

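Of 127 alternative values for the 8 tested genes, 111 kept direction and side of the threshold, 12 lost a call, 3 gained one and 1 reversed. Spry4 and Etv4 entered only without a filter (-0.17 and 0.15). The reversal was Fgfr3 with the highest transcript only (0.44), an alternative that also reversed Fgf1 (1.31) and Rps6ka1 (-0.20), and gave 8 rises among pathway genes in place of 13. Falls numbered 1412 and 1441 among all genes with equal medians and quantile normalization, 15 among pathway genes with equal medians and 14 with array weights, and 7 among the genes' transcripts with quantile normalization. Leaving out 1 library gave 1 to 3 falls and 0 to 1 rises (Dusp6, without PBS replicate 3) among the 8 genes, 457 to 873 falls among all genes, 4 to 9 among pathway genes and 2 to 4 among transcripts. Frs2 was reversed with quantile normalization (-0.10), array weights (-0.049), without PBS replicate 1 (-0.12) and without bleomycin replicate 3 (-0.06). Leaving out 1 library moved Fgf10 between -1.39 and 0.25 (reversed without PBS replicate 3 or, at 0.06, bleomycin replicate 1). The log2 ratio of Spred1 to Spred2 changed by 0.20, by -0.091 with a pseudocount of 5, and by -0.59 (without PBS replicate 1) to 0.70 (without PBS replicate 3) with 1 library left out, -0.03 without bleomycin replicate 2. The cause was not tested. With the replicate number as a block, 1 of the 8 genes fell, Fgfr2, and 563 of all genes, with adjusted p of 0.0648 for Fgfr1 and 0.105 for Spred2. Same-numbered libraries of the 2 groups hardly deviated together (r of -0.00, 0.02 and 0.04 across genes, which are not independent). PBS replicates 1 and 2 did not correlate best with their own number, while PBS replicate 3 did. With 3 libraries a group, such values cannot show whether same-numbered libraries share more than a number. Since the reads behind each FPKM are unknown, the counting error of low values such as those of Spry4 and Etv4 cannot be given.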
